A study of Mus musculus with 18 samples.

Results

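Hepatic insulin signalling was followed through the day in mouse liver over 9 genes, from the receptor Insr over the adaptors Irs1 and Irs2, the PI3-kinase regulatory subunit gene Pik3r1 and the kinases Akt1 and Akt2 to the transcription factors Foxo1 and Foxo3 and the secreted target Igfbp1. They are the 9 rows of the deposited table of normalized gene values that carry these symbols, out of 14451 genes, of which 14449 rose above the lowest value of the table in at least 1 liver and were tested. Igfbp1 and Irs2 were highest around lights on and lowest at the start of the dark phase. Their means differed between these times by a ratio of 39.1 for Igfbp1 and 6.69 for Irs2. With a liver of ZT1 or ZT13 left out, the ratio ran from 29.8 to 98.1 for Igfbp1 and from 5.68 to 8.10 for Irs2. The Igfbp1 ratio of 98.1 was the one without the third ZT13 liver. The kinase, PI3-kinase and FOXO genes moved far less and were highest between ZT9 and ZT13, Insr was highest at ZT5, and Irs1 had no 24 h component that passed the test.

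All 18 livers came from wild-type (WT) male mice of 8 to 9 weeks, held under 12 h of light and 12 h of dark, and 3 livers were taken at each of zeitgeber times (ZT, hours after lights on) 1, 5, 9, 13, 17 and 21. The labels name no transgene and no treatment, and the strain and the feeding schedule are not given in the sources used here. The study's methods state that more mice were sampled than sequenced and that the livers with the best RNA were chosen at each time point. Each time of day was sampled in a single cycle, so that a 24 h rhythm and a change between 6 times cannot be told apart by a repeat of the cycle.

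Insulin bound to its receptor phosphorylates IRS adaptor proteins, which recruit PI3-kinase through its regulatory subunit, and the lipid that this enzyme makes brings AKT to the membrane. Active AKT phosphorylates FOXO proteins and keeps them out of the nucleus, so that FOXO target genes such as Igfbp1 and Irs2 are transcribed mainly when insulin is low, as between meals. Mice eat mostly in the dark, and in liver this pathway restrains glucose output and promotes lipid synthesis after feeding.

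The values are estimated read counts that the authors normalized, and they summed to between 941088 and 1077230 in a liver, so that they are close to reads per 1000000. The lowest value of each liver gave an estimated depth of 10268168 to 23242842 reads. Across 17 core clock genes, 17 of the 18 livers were closest to the mean of the other livers of their own time point. The third ZT5 liver, the most deeply sequenced, was closer to ZT9. The 24 h fits of the 9 genes and the ZT5 means and paralog ratios printed are therefore given with and without it. The sizes of steps from or to ZT5 include it. The hepatocyte marker Alb lay between 50493 and 78544 in every liver. The summed level of 6 Kupffer cell markers ran from 181 to 223 at ZT9 and from 88.8 to 138 at ZT21, that of 6 sinusoidal endothelial markers from 173 to 221 at ZT5 and from 93.6 to 147 at ZT21, and that of 6 hepatocyte markers from 65340 to 69531 at ZT9 and from 71566 to 96595 at the other times. In whole liver, fewer cells of a type and less RNA per cell cannot be told apart, and the part of these shifts in the values of the 9 genes was not tested.

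**Figure D1:**
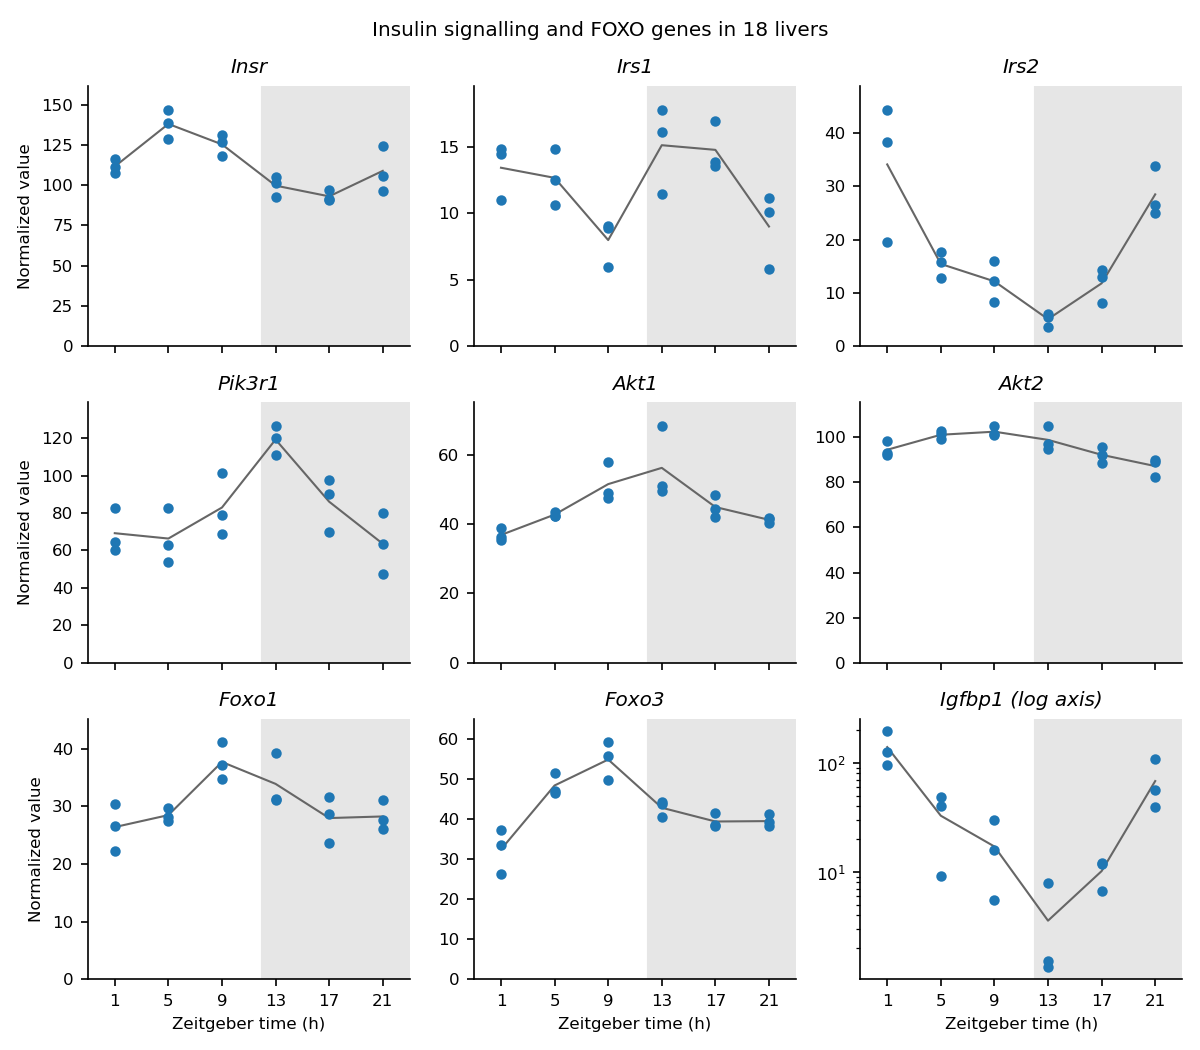
Normalized value of each of the 9 genes (vertical axis, estimated reads on a scale close to 1000000 per liver) against zeitgeber time in hours (horizontal axis), with a point for each of the 18 livers, a line through the means of 3 livers and the dark phase shaded. Igfbp1 is drawn on a log axis, and its ZT1 livers, between 96.0 and 198, lie above all ZT13 livers, between 1.33 and 7.86.

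The promoters of Igfbp1, Irs2 and Irs1 are shown because these 3 genes had the largest ratios between time points among the 9 and because each holds the core of the insulin response element, a short sequence through which FOXO proteins act on Igfbp1. The ratio of Irs1 (1.89) was only just above that of Pik3r1 (1.88). On the log2 scale the range of the means was larger for Pik3r1 (0.926) than for Irs1 (0.841). RefSeq promoters on GRCm38.p6, from 250 bases before to 50 bases after the start, were matched for 8 of the 9 genes (13 promoters), and Insr had no entry. The 150 bases directly before the RefSeq start are printed 5′ to 3′ on the strand of the gene, with matches to CAAAACAA, or TTGTTTTG on the other strand, and to the E-box CACGTG in capitals. Igfbp1 is read from the plus strand at chr11:7197637-7197786, Irs2 from the minus strand at chr8:11008930-11009079 and Irs1 from the minus strand at chr1:82291440-82291589.
Igfbp1: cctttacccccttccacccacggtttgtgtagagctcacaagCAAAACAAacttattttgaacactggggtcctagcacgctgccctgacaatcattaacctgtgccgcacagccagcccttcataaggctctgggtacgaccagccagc
Irs2: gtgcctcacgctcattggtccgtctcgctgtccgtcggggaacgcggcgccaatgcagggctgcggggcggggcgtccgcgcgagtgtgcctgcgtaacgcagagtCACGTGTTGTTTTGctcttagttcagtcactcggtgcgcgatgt
Irs1: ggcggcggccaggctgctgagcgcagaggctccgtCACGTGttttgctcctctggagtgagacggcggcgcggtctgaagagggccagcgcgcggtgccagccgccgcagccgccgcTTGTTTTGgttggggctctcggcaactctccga

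In Igfbp1 the match began at base -108 from the start. In Irs2 an E-box began at base -44 and the insulin response core at base -38, directly after it, whereas in Irs1 the E-box began at -115 and the core at -33. The RefSeq start of Irs2 lies upstream of the gene boundary at chr8:11008458 in GENCODE, which gave the gene positions. The Irs2 positions therefore hold for the RefSeq start only. Among 32851 mouse promoters of the same 300 bases, 2.51% held the insulin response core on either strand and 7.15% held the E-box. The other motifs searched on both strands were the FOXO core GTAAACA, in 3.65% of promoters, the D-box as TTATGTAA or TTACGTAA, in 1.06%, and the ROR element as ANTAGGTCA or ANTGGGTCA, in 1.45%. Of the 13 promoters, the remaining match was a FOXO core at base -161 of an Akt1 promoter, and the promoters of Pik3r1, Akt2, Foxo1 and Foxo3 held none of these letters. A match is a description of the sequence, and binding was not measured in these livers.

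For each gene the means of the 6 time points were compared on log2(value + 1) with limma's moderated F test, called an overall change here, and a 24 h cosine was fitted to the same values, with adjusted p-values (Benjamini-Hochberg) over all 14449 genes and a threshold of 0.05. The overall change passed for 8 of the 9 genes, against 26.3% of all genes tested, and the 24 h cosine for 8 of the 9, against 35.3%. The gene that missed the first test was Akt2 and the gene that missed the second was Irs1. Without the third ZT5 liver the same 8 genes passed the 24 h cosine, with amplitudes of 1.13 for Irs2, 0.41 for Pik3r1, 0.27 for Akt1, 0.11 for Akt2, 0.22 for Foxo1 and 0.26 for Foxo3 on the log2 scale and peaks at ZT0.416, ZT13.3, ZT12.0, ZT8.24, ZT10.6 and ZT9.77 in the same order. Foxo1 no longer passed the overall change (adjusted p = 0.0643). The median 24 h amplitude of the 9 genes was 0.27 on the log2 scale beside 0.16 over all genes tested, and the median range of the time point means was 0.75 beside 0.44. Among the cell type markers, the overall change passed in 3 of 6 hepatocyte, 1 of 6 Kupffer cell and 1 of 6 cholangiocyte genes and in 0 of 20 sinusoidal endothelial, stellate, lymphocyte and blood genes in limma, of which 3 had an unadjusted p below 0.05.

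Insr (ENSMUSG00000005534, chr8:3122061-3279617 on GRCm38), which encodes the insulin receptor, had the values 111, 108 and 116 at ZT1, 138, 129 and 147 at ZT5, 131, 118 and 127 at ZT9, 101, 105 and 92.9 at ZT13, 90.8, 91.4 and 96.9 at ZT17 and 96.5, 125 and 106 at ZT21. All ZT5 and ZT9 livers lay above all ZT1, ZT13 and ZT17 livers, and only the second ZT21 liver reached into the range of ZT9. The mean was 138 ± 9.06 at ZT5 and 93.0 ± 3.34 at ZT17 (SD, n = 3), a ratio of 1.48. Without the third ZT5 liver the ZT5 mean was 134 and the ratio 1.44. The 24 h cosine peaked at ZT5.20 ± 0.67 h with an amplitude of 0.25 ± 0.043 on the log2 scale (SE, adjusted p = 0.000927). Without the third ZT5 liver the peak was at ZT5.22 and the amplitude was 0.23 (adjusted p = 0.00344).

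Between consecutive time points Insr fell from ZT9 to ZT13 by 0.33 ± 0.098 on the log2 scale (SE, adjusted p = 0.0482), a step at which 9.23% of all genes passed. This call rested on the whole set: with a liver left out in turn it passed only without the first or the second ZT21 liver, and the adjusted p reached 0.140. The rise from ZT1 to ZT5 was 0.30 ± 0.098 with an adjusted p of 0.0923.

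Irs1 (ENSMUSG00000055980, chr1:82233101-82291416), which encodes an adaptor that links the receptor to PI3-kinase, had the values 11.0, 14.8 and 14.4 at ZT1, 10.6, 14.8 and 12.5 at ZT5, 9.07, 8.88 and 5.99 at ZT9, 16.1, 17.8 and 11.5 at ZT13, 13.9, 13.5 and 16.9 at ZT17 and 5.80, 10.1 and 11.1 at ZT21. The ZT9 livers lay below all livers of ZT1, ZT5, ZT13 and ZT17 and overlapped those of ZT21, so that low levels recurred 12 h apart. The overall change passed (adjusted p = 0.0234, and 0.0592 without the third ZT9 liver), whereas the 24 h cosine did not, with an amplitude of 0.12 ± 0.13 on the log2 scale (adjusted p = 0.753). Without the third ZT5 liver the overall change passed (adjusted p = 0.0350) and the 24 h cosine did not, with an amplitude of 0.15 (adjusted p = 0.697).

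A 12 h term added to the cosine passed for Irs1 alone among the 9 genes, against 0.872% of all genes tested, with an amplitude of 0.45 on the log2 scale and peaks at ZT2.88 and ZT14.9 (adjusted p = 0.0460). With 6 time points, a 12 h term rests on 3 points a cycle. It passed in only 2 of the 18 fits that left out a liver, those without the first ZT5 or the third ZT13 liver, and the adjusted p reached 0.103. The step from ZT9 to ZT13 was a rise of 0.84 ± 0.22 on the log2 scale (adjusted p = 0.0254), which did not pass without the third ZT9, the first ZT13 or the second ZT13 liver (adjusted p = 0.103, 0.0893 and 0.0915).

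Irs2 (ENSMUSG00000038894, chr8:10984681-11008458), the second adaptor of the family in liver and itself a FOXO target, had the values 19.6, 38.2 and 44.3 at ZT1, 17.7, 15.7 and 12.8 at ZT5, 8.30, 15.9 and 12.3 at ZT9, 5.53, 6.06 and 3.69 at ZT13, 12.9, 8.18 and 14.3 at ZT17 and 24.98, 33.8 and 26.5 at ZT21. Every ZT13 liver lay below every other liver, and every ZT1 and ZT21 liver lay above all livers of the other 4 times. The mean was 34.1 ± 12.9 at ZT1 and 5.09 ± 1.24 at ZT13 (SD, n = 3). The 24 h amplitude of 1.11 ± 0.14 on the log2 scale was the 76th largest of 14449, with a peak at ZT0.19 ± 0.47 h (SE; adjusted p = 3.6e-05).

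Irs2 was the gene of this set with the most steps called. It fell by 1.09 ± 0.29 on the log2 scale from ZT9 to ZT13 (adjusted p = 0.0264) and rose by 1.22 ± 0.29 from ZT17 to ZT21 (adjusted p = 0.0456), a step at which 1.51% of all genes passed. The fall of 1.03 from ZT1 to ZT5 (adjusted p = 0.0524) and the rise of 1.06 from ZT13 to ZT17 (adjusted p = 0.0902; 1.2% of all genes passed) were of a like size and did not pass. The first call was lost without the second or the third ZT9 liver or the first or the third ZT13 liver (adjusted p = 0.119, 0.0699, 0.0601 and 0.0959), and the second in 13 of 18 such fits, with adjusted p-values up to 0.153.

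Since levels of different genes can be compared only per length, the values of Irs2 and Irs1 were divided by their summed exon length of 6323 and 9144 bases. These lengths join the exons of the protein-coding transcripts in the GENCODE basic annotation. The lengths of the transcripts present in these livers were not measured. In this and the other ratios per kb, the side of 1 on which a liver falls therefore depends on the annotation. The ratio of Irs2 to Irs1 per kb was 3.59 ± 0.945 at ZT1, 1.81 ± 0.524 at ZT5, 2.30 ± 0.863 at ZT9, 0.485 ± 0.0177 at ZT13, 1.15 ± 0.246 at ZT17 and 4.85 ± 1.39 at ZT21 (SD, n = 3), and without the third ZT5 liver the ZT5 ratio was 1.97. In all 3 ZT13 livers Irs1 was the more abundant of the adaptors, between 0.465 and 0.498, and in all livers of ZT1, ZT5, ZT9 and ZT21 it was Irs2. At ZT17 the livers fell on both sides of 1, from 0.875 to 1.35.

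**Figure D2:**
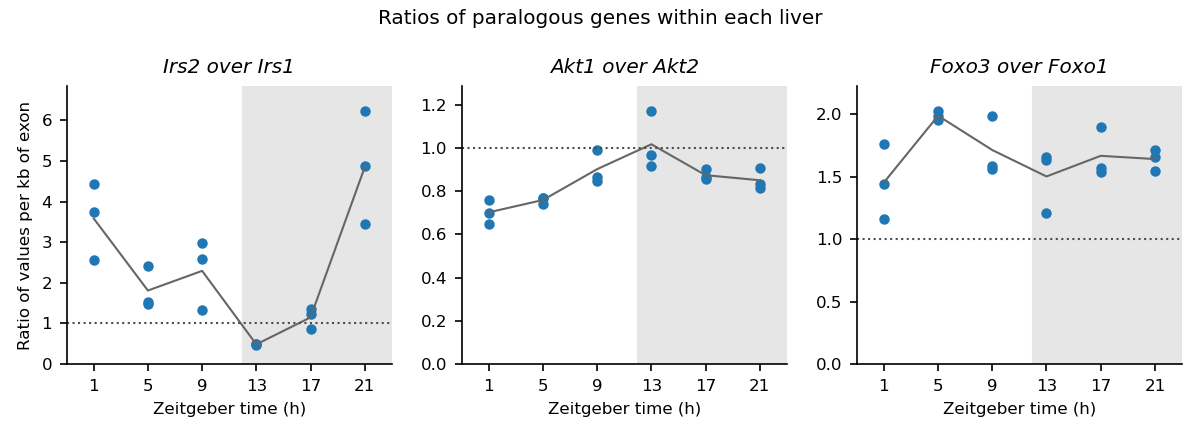
Ratio of the values per kb of exon within each liver (vertical axis) for Irs2 over Irs1, Akt1 over Akt2 and Foxo3 over Foxo1, against zeitgeber time in hours (horizontal axis). Points are the 18 livers, the solid line joins the means, the dotted line marks a ratio of 1 and the dark phase is shaded, and the ratio of the adaptors spans 0.465 to 6.22 whereas that of the FOXO genes stays between 1.16 and 2.03.

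Pik3r1 (ENSMUSG00000041417, chr13:101680563-101768217), which encodes the main regulatory subunits of PI3-kinase, had the values 82.8, 64.4 and 60.4 at ZT1, 53.7, 62.8 and 82.5 at ZT5, 101, 68.8 and 78.7 at ZT9, 111, 126 and 120.1 at ZT13, 90.3, 97.7 and 70.0 at ZT17 and 79.9, 47.5 and 63.3 at ZT21. The ZT13 livers lay above all other livers, and the other 5 times overlapped. The mean was 119 ± 7.66 at ZT13 and 63.6 ± 16.2 at ZT21 (SD, n = 3), a ratio of 1.88. Its 24 h amplitude was 0.39 ± 0.090 on the log2 scale with a peak at ZT13.0 ± 0.88 h (SE; adjusted p = 0.00843), near the time at which Irs2 and Igfbp1 were lowest. The overall change (adjusted p = 0.0211) was lost without the second or the third ZT13 liver (0.0702 and 0.0618).

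Akt1 and Akt2 encode the kinases downstream of PI3-kinase, of which AKT2 is the form best known for insulin action in liver. Akt1 (ENSMUSG00000001729, chr12:112653821-112674884) had the values 38.9, 35.5 and 36.2 at ZT1, 43.4, 42.4 and 42.4 at ZT5, 49.0, 58.0 and 47.6 at ZT9, 68.3, 51.0 and 49.5 at ZT13, 44.4, 42.1 and 48.3 at ZT17 and 41.5, 41.8 and 40.4 at ZT21. All ZT1 livers lay below all others, and the first ZT13 liver lay above all others. The mean rose from 36.9 ± 1.81 at ZT1 to 56.2 ± 10.5 at ZT13 (SD, n = 3), and the 24 h cosine had an amplitude of 0.27 ± 0.046 on the log2 scale and a peak at ZT12.0 ± 0.65 h (SE; adjusted p = 0.000797). Without the first ZT13 liver the ZT13 mean was 50.2, below the ZT9 mean of 51.6.

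Akt2 (ENSMUSG00000004056, chr7:27591552-27640826) had the values 91.9, 98.5 and 93.0 at ZT1, 102, 103 and 99.2 at ZT5, 101, 105 and 101 at ZT9, 105, 94.7 and 97.0 at ZT13, 92.4, 88.5 and 95.9 at ZT17 and 82.4, 90.1 and 89.2 at ZT21. The ZT5 and ZT9 livers lay above all livers of ZT1, ZT17 and ZT21, by a narrow margin. The ZT9 mean exceeded the ZT21 mean by a ratio of 1.17, the smallest of the 9 genes, and the overall change did not pass (adjusted p = 0.138). The 24 h cosine, which spends fewer degrees of freedom, passed with an amplitude of 0.11 ± 0.030 on the log2 scale and a peak at ZT8.32 ± 1.0 h (SE; adjusted p = 0.0203), and not without the first ZT21 liver (0.0548). Per kb of exon, the ratio of Akt1 to Akt2 was 0.702 ± 0.0565 at ZT1 and 1.02 ± 0.134 at ZT13 (SD, n = 3). The ZT13 livers fell on both sides of 1, at 0.916, 0.965 and 1.17.

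Foxo1 and Foxo3 encode the FOXO transcription factors that AKT inactivates. Foxo1 (ENSMUSG00000044167, chr3:52268336-52353221) had the values 26.5, 30.4 and 22.3 at ZT1, 28.2, 27.5 and 29.8 at ZT5, 41.1, 37.2 and 34.8 at ZT9, 39.3, 31.3 and 31.1 at ZT13, 28.7, 23.6 and 31.7 at ZT17 and 26.1, 31.1 and 27.6 at ZT21. The ZT9 livers lay above all livers of ZT1, ZT5, ZT17 and ZT21, and the ZT13 livers overlapped them. The 24 h amplitude was 0.22 ± 0.057 on the log2 scale with a peak at ZT10.6 ± 1.0 h (SE; adjusted p = 0.0185). The overall change had an adjusted p of 0.0491 and was lost in 14 of the 18 fits without a liver (up to 0.138), the exceptions being those without the second ZT1, the second or the third ZT17 or second ZT21 liver.

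Foxo3 (ENSMUSG00000048756, chr10:42181841-42276755) had the values 26.4, 37.4 and 33.6 at ZT1, 47.2, 46.7 and 51.5 at ZT5, 55.9, 49.8 and 59.3 at ZT9, 40.6, 43.8 and 44.3 at ZT13, 38.5, 38.3 and 41.6 at ZT17 and 38.2, 41.2 and 39.2 at ZT21. The ZT1 livers lay below all others, and all livers of ZT5 and ZT9 lay above all livers of the other 4 times. It rose from ZT1 to ZT5 by 0.58 ± 0.11 on the log2 scale (SE, adjusted p = 0.00625), a step at which 4.89% of all genes passed, and this call held in all 18 fits without a liver. The 24 h amplitude was 0.27 ± 0.062 with a peak at ZT9.47 ± 0.88 h (adjusted p = 0.00802). Per kb, Foxo3 exceeded Foxo1 in every liver, by a ratio of 1.46 ± 0.299 at ZT1 to 1.99 ± 0.0350 at ZT5 (SD, n = 3; 1.97 without the third ZT5 liver).

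Igfbp1 (ENSMUSG00000020429, chr11:7197782-7202546), which encodes a secreted binding protein for insulin-like growth factors made by hepatocytes, had the values 96.0, 125 and 198 at ZT1, 48.9, 40.2 and 9.18 at ZT5, 5.58, 30.0 and 15.8 at ZT9, 1.52, 1.33 and 7.86 at ZT13, 11.8, 6.71 and 12.0 at ZT17 and 39.3, 108 and 56.9 at ZT21. All ZT1 and ZT21 livers but the first of ZT21 lay above all livers of the other 4 times, and that liver lay above all of these but the first and the second of ZT5. The mean was 139.8 ± 52.7 at ZT1 and 3.57 ± 3.72 at ZT13 (SD, n = 3). Without the third ZT13 liver the ZT13 mean was 1.43. Behind the ZT13 values stood 18, 19 and 90.0 estimated reads, and behind the highest value, in the third ZT1 liver, 2073.

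The 24 h amplitude of Igfbp1 was 2.30 ± 0.29 on the log2 scale, the 4th largest of 14449 genes, with a peak at ZT0.65 ± 0.48 h (SE; adjusted p = 4.18e-05). The third ZT5 liver, which lay nearer to ZT9 by its clock genes, held 9.18 beside 48.9 and 40.2 in the other ZT5 livers, and without it the ZT5 mean was 44.6 in place of 32.8, the amplitude 2.44 and the peak ZT1.06. The spread between livers of a time point was also the widest of the 9 genes, and none of its 6 steps passed in limma (4 had an unadjusted p below 0.05). The largest were a rise of 2.54 ± 0.66 on the log2 scale from ZT17 to ZT21 (adjusted p = 0.0696) and a fall of 2.29 ± 0.66 from ZT1 to ZT5 (0.0603).

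In all, 5 of the 54 steps of the 9 genes passed in limma. None passed at ZT5 to ZT9, where 1.54% of all genes did, at ZT13 to ZT17 or at ZT21 to ZT1, where 0.131% did, and the unadjusted p was below 0.05 for 3, 4 and 2 of the 9 genes at these steps. The peaks of the 8 genes with a 24 h cosine ran from Irs2 and Igfbp1 near lights on over Insr, Akt2, Foxo3, Foxo1 and Akt1 to Pik3r1. The standard errors of the peaks of Irs2 and Igfbp1 overlapped, as did those of Akt2 and Foxo3, of Foxo3 and Foxo1, of Foxo1 and Akt1, and of Akt1 and Pik3r1.

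**Figure D3:**
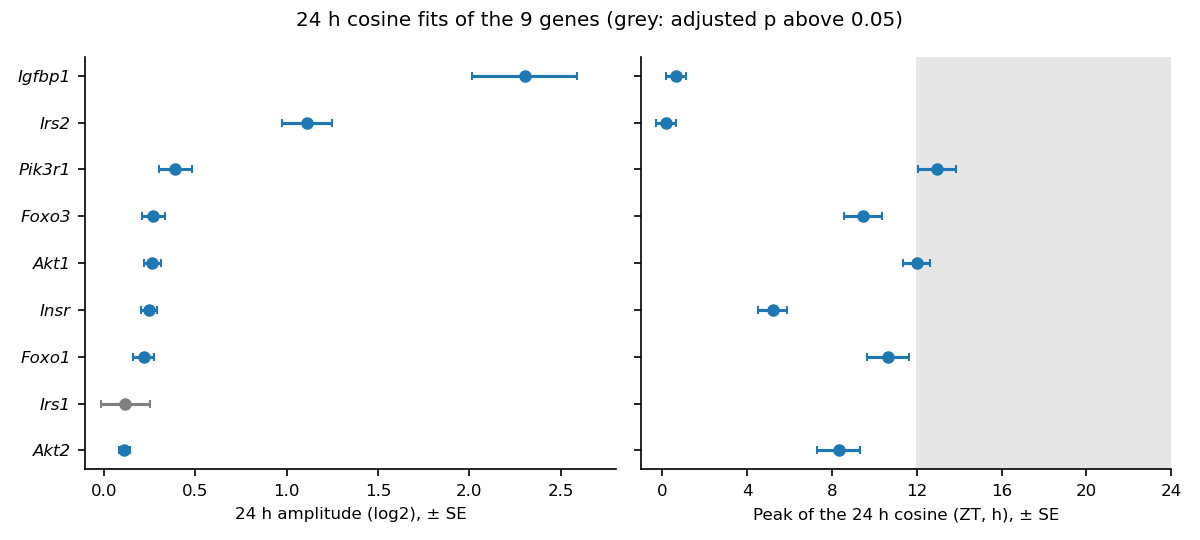
Amplitude of the 24 h cosine in log2 units (left) and its peak in zeitgeber hours (right) for the 9 genes, with bars of 1 SE and the dark phase shaded on the right. Igfbp1 (2.30) and Irs2 (1.11) have the largest amplitudes and peak within 1 h of lights on, and Irs1, in grey, has no peak drawn because its cosine did not pass.

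The study used rhythm detection methods with periods of 20 to 28 h, and 3 of that kind were run on these values. JTK, a rank test against cosine orders, called 6 of the 9 genes (Insr, Irs2, Akt1, Akt2, Foxo3 and Igfbp1) beside 14% of all genes. The same 6 genes passed when JTK was combined with a Lomb-Scargle periodogram as in MetaCycle, beside 18.1% of all genes. Nonlinear least squares with the cosine curve of CircaN, with an adjusted p below 0.05 and an R2 of at least 0.7 required, called Insr, Irs2 and Akt2, beside 11.2% of all genes. All 9 genes had an adjusted p of 3.43e-05 or less in this fit, Irs1 with an R2 of 0.228 included. The R2 limit alone therefore decided which of them were called. Igfbp1 missed the R2 limit at 0.649 in this fit, which uses the linear scale, and Foxo3 missed it narrowly at 0.699. The fitted period of Foxo3 lay at the lower limit of 20 h, as did those of Pik3r1, Foxo1 and Irs1. That of Insr was 20.4 h. Pik3r1 (JTK adjusted p = 0.105), Foxo1 (0.196) and Irs1 (1) passed none of the 3.

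Livers of the same time point also differed from each other in a coordinated way. At ZT1, ZT5, ZT9, ZT17 and ZT21 the order of the 3 livers by Pik3r1 was the exact reverse of their order by Irs2, and the same 5 of 6 time points held for Pik3r1 and Igfbp1. At ZT21, for example, the liver with the lowest Pik3r1 value (47.5) had the highest Igfbp1 (108) and Irs2 (33.8) values, and the liver with the highest Pik3r1 value (79.9) had the lowest Igfbp1 (39.3) and Irs2 (24.98) values. Only at ZT13, where Igfbp1 and Irs2 had their lowest means, was there no such order. Irs2 and Igfbp1 themselves put the livers in the same order at 5 of 6 time points. Their counts with Pik3r1 are therefore not separate observations. The share of all genes with such reverse orders was not counted.

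Over 18 livers, the deviations from the time point mean on the log2 scale of Pik3r1 and Irs2 had a Pearson's r of -0.776 and a Spearman's rho of -0.787 (exact permutation test within time points over 46656 rearrangements, two-sided p = 0.000343, adjusted p = 0.0123 over all 36 pairs of the 9 genes), and r was -0.699 without the 2 livers farthest from the median of Irs2, the first of ZT1 and the first of ZT9. For Pik3r1 and Igfbp1, r was -0.769 and rho -0.736 (exact permutation p = 0.00116, adjusted p = 0.0208), and r was -0.750 without the 2 livers farthest from the median of Pik3r1, which were the first and the second of ZT21. The pair Irs2 and Igfbp1 had an r of 0.482 and a rho of 0.478 (exact permutation p = 0.0542, adjusted p = 0.268). Pik3r1 and Akt2 came closer, with an r of -0.682 and a rho of -0.736 (exact permutation p = 0.00446, adjusted p = 0.0535). Neither of these pairs passed, nor did any other. Pik3r1 had a negative r with each other gene of the set, from -0.776 for Irs2 to -0.212 for Foxo3. The comparison of deviations was chosen after the values were seen. The call for Irs2 was lost without the first ZT1 liver (r = -0.762, adjusted p = 0.0521) and that for Igfbp1 in 10 of 18 such tests, with r between -0.887 and -0.704 and adjusted p-values up to 0.0845, which was reached without the third ZT5 liver.

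Among 12479 genes with a mean of at least 1, Pik3r1 had the 22nd most negative such r with Irs2 and the 41st with Igfbp1, which put it in the lowest 0.176% and 0.329% of genes. The central 95% of genes had an r between -0.583 and 0.5999 with Irs2 and between -0.622 and 0.593 with Igfbp1. Ranked by r with Pik3r1 instead, Irs2 was the 46th and Igfbp1 the 52nd most negative, in the lowest 0.369% and 0.417%. There the central 95% lay between -0.639 and 0.663. The livers of a time point share no further label, and time of death within the time point, feeding and RNA quality were not recorded in the labels.

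**Figure D4:**
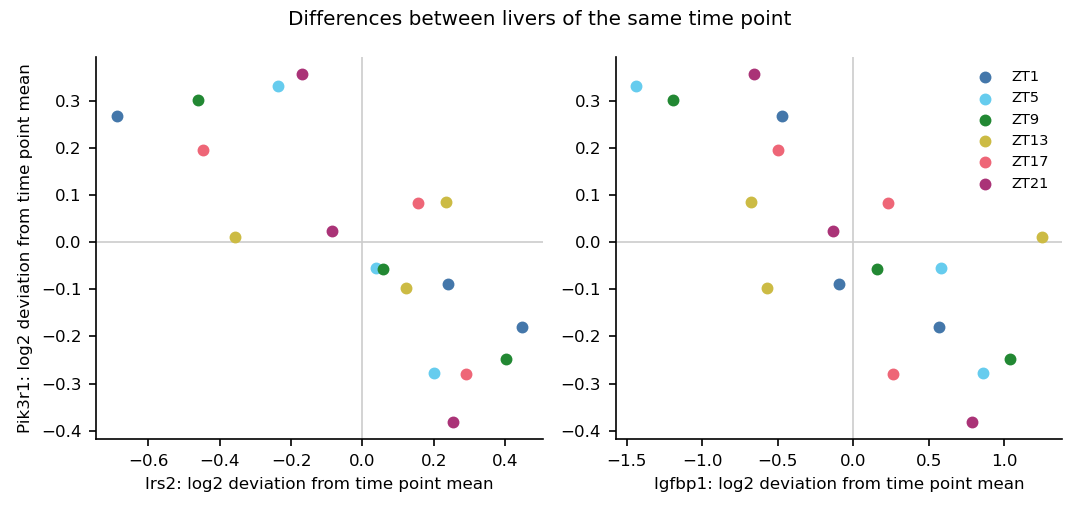
Deviation of Pik3r1 from its time point mean (vertical axis, log2) against that of Irs2 (left) and Igfbp1 (right) on the same scale, with a point for each of the 18 livers coloured by zeitgeber time. The points run from upper left to lower right, with r of -0.776 for Irs2 and -0.769 for Igfbp1.

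For each gene with a 24 h cosine, the 2 genes with the most similar values over the 18 livers were found among 12471 genes by Pearson's r on the log2 scale, as a description in which time of day and library are shared. Irs2 was most like Rnf125 (r = 0.920), a ubiquitin ligase gene with means of 140.4 at ZT1 and 17.5 at ZT13, and Tmco6 (r = 0.909). Igfbp1 was most like Ccdc162 and Pld1 (both r = 0.934 to 0.935), Pld1 being a phospholipase D. Insr was most like Kif1b (r = 0.94), a kinesin, and Rbl2 (0.921), a pocket protein of the retinoblastoma family. The nearest genes were Baz1a (0.908) and Mis12 (0.903) for Pik3r1, Gfra1 (0.936) and Plbd2 (0.903) for Akt1, Bcar1 (0.934) and Map3k3 (0.888) for Akt2, Snx10 (0.858) and Snw1 (0.809) for Foxo1, and Sec22c (0.907) and Upp2 (0.871) for Foxo3.

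Beyond the 9 genes, 8 lists of other pathway genes held 97 tested genes, of which 41 (42.3%) passed the overall change, beside 26.3% of all genes. FOXO target genes held the most, with 17 of 24, and a median range of 1.084 on the log2 scale beside 0.44 over all genes. The 24 h cosine passed for 18 of 24, beside 35.3% of all genes. The peaks of these 18 lay between ZT0.20 and ZT23.0, 13 in the light and 5 in the dark, beside 51.6% in the light over the 5103 genes with a 24 h cosine. The light and dark phases meet at lights on, close to the peaks of Igfbp1 and Irs2, so that targets near those peaks fall in both. Ccng2, an atypical cyclin gene, was 27.1 ± 3.56 at ZT1 and 9.03 ± 1.52 at ZT13, as with Irs2. Gabarapl1, an autophagy gene, was highest at ZT5 (345 ± 5.78) and lowest at ZT17 (133 ± 15.1), and Bnip3, a mitophagy gene, was highest at ZT13 (276 ± 19.7) and lowest at ZT1 (126 ± 5.52; SD, n = 3; adjusted p at most 3.15e-05 for all 3).

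Genes that insulin induces in liver passed the overall change in 4 of 6, beside 26.3% of all genes, and 3 of 6 passed the 24 h cosine, beside 35.3%. Srebf1, which encodes the lipogenic factor SREBP1, was 654 ± 57.4 at ZT13 and 255 ± 33.2 at ZT21 (adjusted p = 0.000965), and Acaca, which encodes acetyl-CoA carboxylase, was 212 ± 17.1 at ZT13 and 119 ± 14.1 at ZT1 (0.00233).

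Brakes on insulin signalling passed the overall change in 6 of 17, beside 26.3% of all genes. Trib3, a pseudokinase that binds AKT, was 10.5 ± 2.35 at ZT5 and 1.92 ± 1.17 at ZT21 (adjusted p = 0.000155), Enpp1, a membrane pyrophosphatase, was 25.03 ± 1.14 at ZT9 and 16.2 ± 0.638 at ZT1, and Phlpp1, a phosphatase of AKT, was 25.2 ± 0.993 at ZT5 and 15.7 ± 1.05 at ZT13. Kinases beside and below AKT passed in 6 of 13, beside the same 26.3%. Mtor, the kinase of both mTOR complexes, was 53.4 ± 7.26 at ZT5 and 29.9 ± 1.12 at ZT17 (adjusted p = 0.000181), Rictor, a subunit of mTORC2, was 28.4 ± 2.46 at ZT5 and 17.2 ± 2.13 at ZT13, and Sgk2, a kinase related to AKT, was 77.8 ± 15.4 at ZT5 and 31.8 ± 5.57 at ZT9 (SD, n = 3).

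The other PI3-kinase subunits passed the overall change in 4 of 9, beside 26.3% of all genes. The 24 h cosine passed in 6 of 9, beside 35.3% of all genes. Of these 6, 5 peaked in the light, beside 51.6% over all genes with a 24 h cosine. The catalytic subunit genes Pik3ca (40.6 ± 2.29 at ZT5 and 28.8 ± 1.26 at ZT17), Pik3cb (21.5 ± 0.868 at ZT9 and 14.6 ± 1.64 at ZT21) and Pik3cd (4.47 ± 0.912 at ZT9 and 2.22 ± 0.569 at ZT1) were the 3 with the lowest p. Without the third ZT5 liver, the ZT5 means of these pathway genes were 348 for Gabarapl1, 11.3 for Trib3, 25.5 for Phlpp1, 55.0 for Mtor, 29.3 for Rictor, 82.0 for Sgk2, 40.9 for Pik3ca and 70.3 for Igfals (n = 2). Of the receptor level and adaptor genes 2 of 10 passed (20%), a smaller share than the 26.3% of all genes. Among them was Gab1 (18.1 ± 2.17 at ZT9 and 10.7 ± 1.23 at ZT1). Of the IGF and IGF-binding protein genes 2 of 9 passed (22.2%), a smaller share than the 26.3% of all genes. Both had their highest mean at ZT13, where that of Igfbp1 was lowest. They were Igfbp4 (1222 ± 154 at ZT13 and 564 ± 14.3 at ZT1) and Igfals (145 ± 34.2 at ZT13 and 74.2 ± 8.05 at ZT5, SD, n = 3). Their 24 h cosines peaked at ZT11.2 for Igfbp4 and ZT16.8 for Igfals. Of the other FOXO factors and their regulators none of 9 passed the overall change in limma, beside 26.3% of all genes, and 4 had an unadjusted p below 0.05. The 24 h cosine passed in 4 of these 9, beside 35.3% of all genes.

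**Figure D5:**
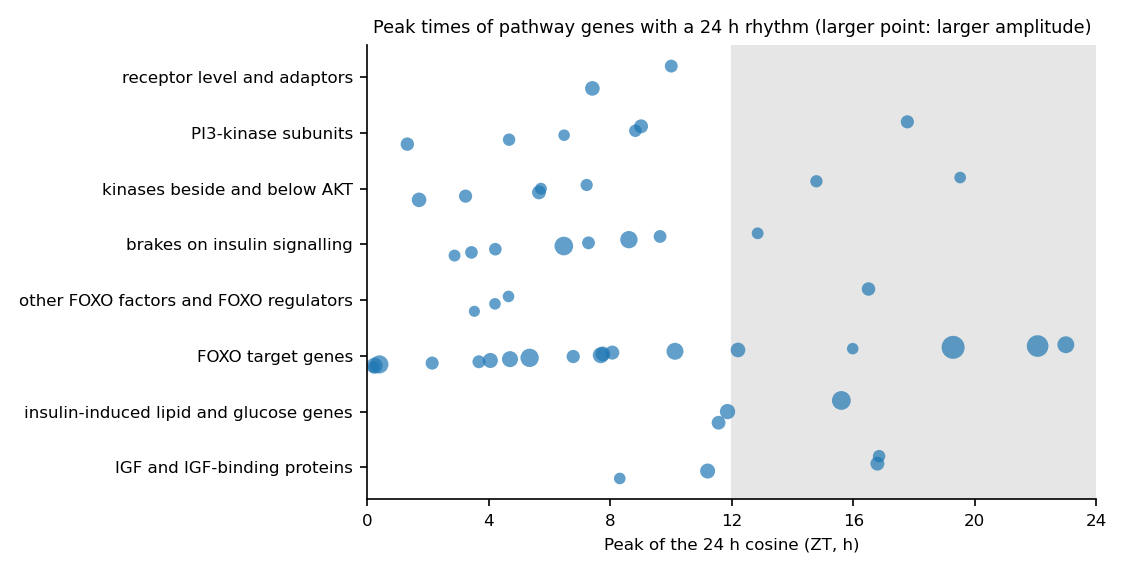
Peak of the 24 h cosine in zeitgeber hours (horizontal axis) for the 52 pathway genes whose cosine passed, in a row for each of the 8 lists, with larger points for larger amplitudes and the dark phase shaded. FOXO target genes spread over both phases, with 13 in the light and 5 in the dark, beside 51.6% in the light over all genes with a 24 h cosine.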

How the data were processed

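Per the labels and methods, polyA RNA of 18 livers was sequenced (NEBNext Ultra, HiSeq2500) and the authors trimmed reads with cutadapt, estimated counts per gene with RSEM 1.2.20 on GRCm38 with Ensembl annotation, and normalized them with limma. The deposited table holds this normalized signal per gene on a linear scale, with an offset of 0.5 reads, so that depth was estimated from the lowest value of each liver. Because these are not raw counts, log2(value + 1) was fitted with limma 3.58.1 in R 4.3.3, and 2 genes that never rose above that lowest value were left out. JTK, Lomb-Scargle and the CircaN cosine were coded in Python 3.11.15 with scipy 1.17.1 and tested on simulated data. The other curve types of CircaN were not run. Livers are numbered in the order of their labels, and nothing says which livers share a cage or preparation day. Gene positions and exon lengths are from GENCODE M21 and promoters from RefSeq. The 9 genes, the lists and the named genes (up to 3 with the lowest p per list) were chosen with earlier results of these data known, so that they give no independent support. Reads shared between paralogous genes were split by the authors' estimation. Some genes that the naming rule picks are not reported here.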

Additional observations from a re-analysis of the deposited data

How the results depend on the processing

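The number of the 9 genes called was 6 to 9 for the overall change, 7 to 8 for the 24 h cosine, 5 to 7 for JTK and 5 to 7 for JTK with Lomb-Scargle under all alternatives run, beside 8, 8, 6 and 6. No direction changed. The 12 h term of Irs1 was lost with no pseudocount (0 genes) and with livers scaled to equal totals (0), and with a liver left out the count was 0 to 1. The overall change of Foxo1 was lost with no pseudocount (adjusted p = 0.0606) and with quantile normalization (0.0580), as was the Irs2 step from ZT17 to ZT21 (0.0706 and 0.0517), and the overall change of Akt2 passed with a pseudocount of 5 (0.0457). The 5 steps called became 10 with a pseudocount of 5 and 12 with a prior variance that follows the mean level, and were 1 to 7 with a liver left out. The CircaN cosine called 5 genes in place of 3 on the log2 scale and 3 to 5 with a liver left out. The correlations of Pik3r1 with Irs2 and Igfbp1, chosen after seeing the data, passed under 5 other scalings and filters (r from -0.848 to -0.763 and from -0.841 to -0.720). Of these, the filter for a mean of at least 1 left the values of the 9 genes unchanged, so its result was fixed in advance. The cause of the shifts in this paragraph was not tested.

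Over all genes, JTK called 3237 in place of 2018 when time points with equal cosines were taken as 1 group. The 12 h term called 62 with no pseudocount and 195 with a pseudocount of 5 in place of 126. With a pseudocount of 5, the steps ZT13 to ZT17 and ZT17 to ZT21 called 309 and 356 in place of 174 and 218. With the trended prior, the steps from ZT5, ZT13, ZT17 and ZT21 called 334, 300, 333 and 29 in place of 222, 174, 218 and 19. With a liver left out, JTK called 1127 to 1793 and the 12 h term 32 to 114. The background counts of the steps moved by over 1.5 times with a liver left out: 352 to 729 in place of 706 for ZT1 to ZT5, 79 to 238 in place of 222 for ZT5 to ZT9, 701 to 1342 in place of 1334 for ZT9 to ZT13, 49 to 208 in place of 174 for ZT13 to ZT17, 49 to 209 in place of 218 for ZT17 to ZT21 and 9 to 19 in place of 19 for ZT21 to ZT1.

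No paired analysis was possible because whole livers were harvested, so that the time points hold different mice. With 18 to 90.0 estimated reads at ZT13, the lowest Igfbp1 values carry the widest counting error of the set.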
